A study of Mus musculus with 12 samples.

Results

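The genes described here are 40 genes of the ciliated cell and its axoneme, the microtubule core of a motile cilium. They were chosen by symbol, and all 40 were found among the 78298 gene rows of the deposited table and passed the filter on low counts. RNA was sequenced from mouse lung in 12 libraries, 3 in each of 4 groups: normal adjacent lung with VEH, normal adjacent lung with HDM (house dust mite), LLC tumours dissected from lung with VEH, and LLC tumours with HDM. VEH and LLC stand as the labels write them, the exposure to HDM is described as chronic, and no strain, sex, age or number of animals is given. RNA came from a small aliquot of each piece of tissue, so a library holds whatever cells lay in it. Nothing in them says that the 3 libraries of a group came from separate animals, so p-values measure the spread between these libraries, which may be partly technical.

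Ciliated cells line the conducting airways, where beating cilia move mucus toward the throat. A precursor cell becomes multiciliated when Mcidas and its partners of the E2F family start the programme, when Deup1 and Ccno support the mass production of centrioles, and when Foxj1 and the RFX factors switch on the genes that build the axoneme. Within the axoneme, dynein arms slide the microtubule doublets, nexin links, radial spokes and the central pair control the sliding, and tektins and other proteins lie within the doublet wall.

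RFX factors bind a sequence called the X-box, so the 250 bases before the start site of each member were searched for it on both strands. A match to the X-box consensus was found for 3 of the 40 members (7.5%) and for 215 of 21723 protein-coding genes (0.99%). Those 3 promoters are printed to show where the match lies, with the X-box in capitals. All are from GRCm39, 5′ to 3′ on the strand of the gene, and end at the base before the start of the canonical transcript in GENCODE M39. For Cfap44 the gene record begins further upstream, at base 44215138, which lies inside the printed window and inside its X-box.
Tekt2, chr4:126219482-126219731, minus strand: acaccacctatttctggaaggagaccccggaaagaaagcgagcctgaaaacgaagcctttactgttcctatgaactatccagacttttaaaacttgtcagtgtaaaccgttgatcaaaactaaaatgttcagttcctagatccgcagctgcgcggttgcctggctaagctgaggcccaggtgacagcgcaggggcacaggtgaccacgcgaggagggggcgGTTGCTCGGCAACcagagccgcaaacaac
Cfap44, chr16:44214902-44215151, plus strand: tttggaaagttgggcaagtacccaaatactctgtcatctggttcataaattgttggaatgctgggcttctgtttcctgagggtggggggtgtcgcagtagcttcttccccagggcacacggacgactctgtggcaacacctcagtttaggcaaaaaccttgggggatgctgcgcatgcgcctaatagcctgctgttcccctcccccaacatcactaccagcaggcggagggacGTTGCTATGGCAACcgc
Ccno, chr13:113124065-113124314, plus strand: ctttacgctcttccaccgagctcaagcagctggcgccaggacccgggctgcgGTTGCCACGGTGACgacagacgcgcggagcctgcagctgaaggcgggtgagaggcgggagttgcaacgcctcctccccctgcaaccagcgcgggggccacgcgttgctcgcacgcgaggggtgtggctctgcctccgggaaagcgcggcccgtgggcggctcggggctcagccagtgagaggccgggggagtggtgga
The match spans bases 29 to 17 before the start site of Tekt2, 17 to 4 before that of Cfap44 and 198 to 185 before that of Ccno. The shorter RFX core GTTGCC, which can lie inside an X-box, was present for 10 members (25%) against 9.45% of all genes, and the forkhead motif GTAAACA for 3 members (7.5%) against 2.71%. These matches are descriptions of the sequence and say nothing about binding.

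A library held 20608682 to 32765364 counts. The 40 genes together took 0.0939% to 0.284% of the counts of a normal library and 0.00713% to 0.139% of those of a tumour library. Several libraries stood apart from their group. Tumour HDM replicate 3 had 0 counts of the epithelial adhesion genes Epcam and Cdh1, which the other 5 tumours held at 6.9 to 57.3 CPM and 43.3 to 206 CPM. CPM here are counts scaled to the library total with TMM factors, and levels are in CPM unless stated otherwise. Normal VEH replicate 2 held the proliferation list at a median of 293% of the normal mean, where the other 5 normal libraries held it at 54.1% to 65.6% and the 6 tumours at 892% to 1930%.

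Per transcript length (TPM, counts divided by gene length and scaled to the library), Tppp3, a tubulin polymerisation-promoting protein, was at 570 ± 205 TPM (SD, n = 6) over the normal libraries and ranked first of the 40 in all 12 libraries. The lowest normal value of Tppp3 was 307 TPM and the highest of Foxj1, next in order, was 251 TPM. Foxj1 averaged 188 ± 72.4 TPM, followed by the spoke-head gene Rsph1 (96.6 ± 37.8 TPM), the doublet protein gene Cfap126 (62.9 ± 20.5 TPM) and Sntn, whose product sentan sits at the ciliary tip (51.7 ± 20 TPM). From Foxj1 downward, the ranges of neighbours over the normal libraries overlapped among the 5 genes named. Within each of the 6 normal libraries, however, the 5 genes stood in this same order. The 7 dynein heavy chain genes were at 4.32 to 15 TPM, Dnah5 and Dnah6 ranking 21 and 22 of 40 and the others 27 to 36. The lower end also held Cfap44 (8.53 TPM), Ccdc39 (6.48 TPM), Rfx2 (6.44 TPM), Hydin (6.27 TPM) and Spag17 (5.27 TPM). The last 4 were the centriole genes Deup1 (4.22 ± 1.61 TPM) and Ccno (4.1 ± 1.9 TPM), Rfx3 (3.89 ± 1.16 TPM), a long transcript, and Mcidas (1.02 ± 0.613 TPM). Between the lowest and the highest normal library the CPM of a member differed by 2.04-fold (the adenylate kinase gene Ak8) to 7.14-fold (Dnah12), leaving out Mcidas, which was at 0 in 1 library.

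In the normal lung the members varied together by library. The median member was at 134%, 53.1% and 122% of the normal mean in VEH replicates 1, 2 and 3, and at 40.7%, 128% and 114% in HDM replicates 1, 2 and 3. VEH replicate 2 and HDM replicate 1 both lay below the other 4 normal libraries for 39 of 40 members. The same 2 libraries were low for the airway secretory list (markers of club cells), with medians of 40.1% and 38%, against 90.6% to 158% in the other 4. Their alveolar type 2 list, the surfactant-producing cells, was at 107% and 144%, within or above the range of the other 4 (46.4% to 136%).

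**Figure D1:**
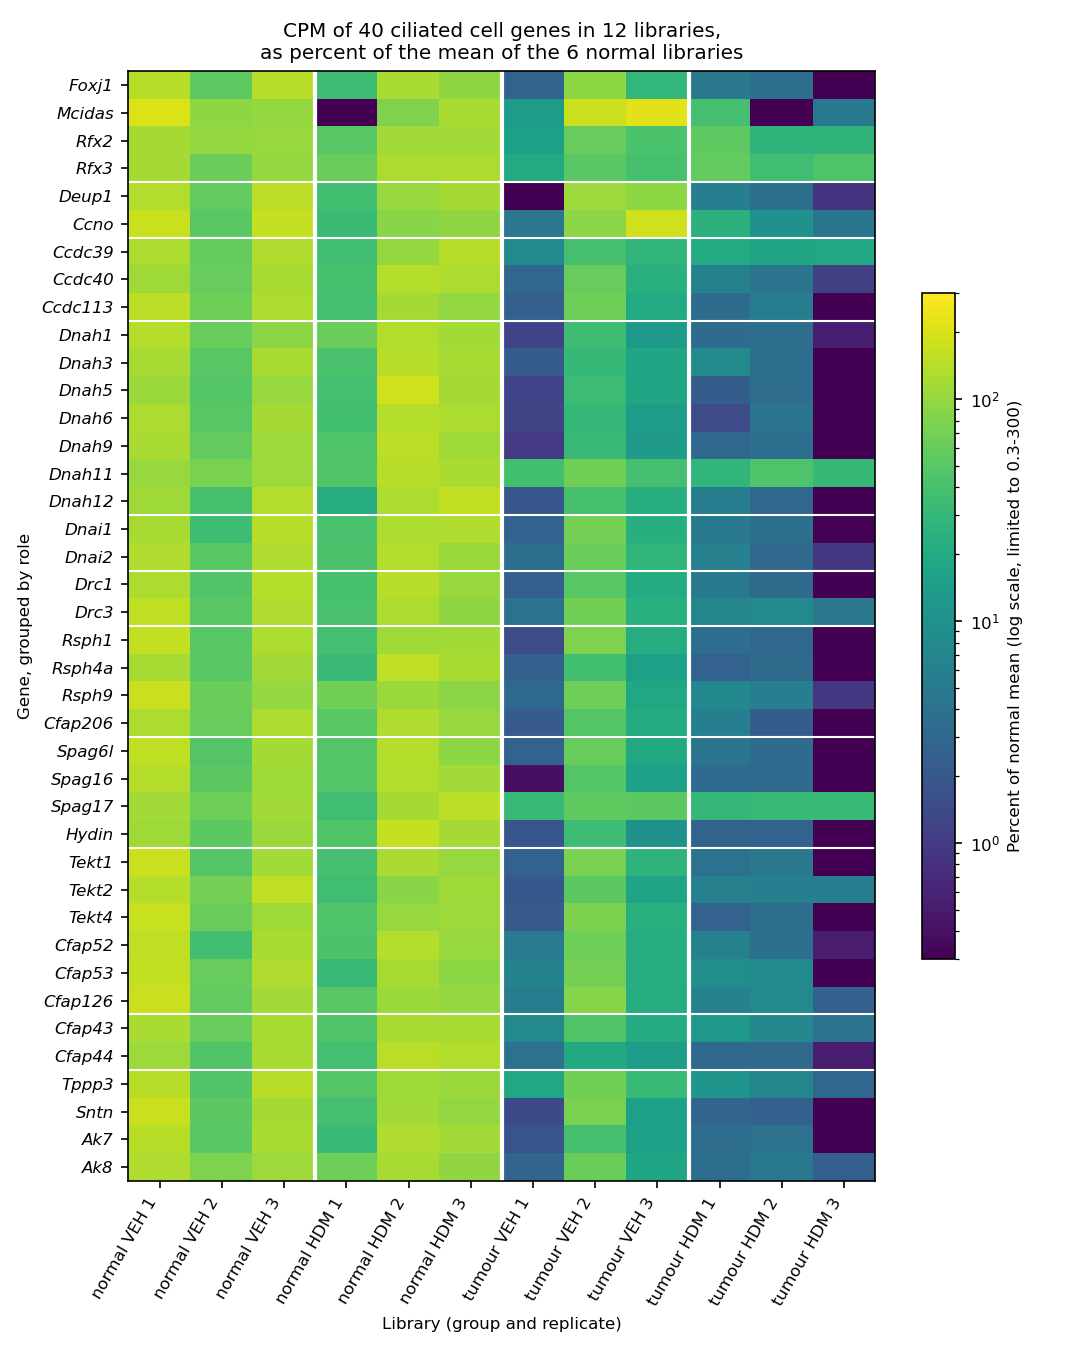
Colour gives the CPM of each of the 40 genes (rows, grouped by role) in each of the 12 libraries (columns) as a percent of the mean of the 6 normal libraries, on a log scale limited to the range 0.3 to 300. Lower values are darker. Normal VEH replicate 2 and normal HDM replicate 1 are the darker columns among the normal libraries, and tumour HDM replicate 3 is the darkest of the 12 columns, with Rfx2, Rfx3, Ccdc39, Dnah11 and Spag17 still green.

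Whether HDM changed these genes in adjacent lung was tested first. None of the 40 was called in normal HDM against normal VEH by edgeR (background 0% of 22190 genes), none had an unadjusted p below 0.05 (background 5.54%), and DESeq2 called none of the 40 (background 0.206%). The median log2 fold change was -0.16 over the members and -0.01 over all genes. Members ranged from -0.94 (Mcidas) to 0.4 (Dnah5, an outer dynein arm heavy chain). Standard errors were 0.39 to 1.33. The groups overlapped for all 40 members, while 5.85% of all genes lay apart with HDM lower and 4.47% with HDM higher.

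The median member was below its normal mean in each of the 6 tumours, by amounts that differed widely between libraries. It was at 2.62%, 60.8% and 21.7% of the normal mean in tumour VEH replicates 1, 2 and 3, and at 5.6%, 3.89% and 0.407% in tumour HDM replicates 1, 2 and 3. In bulk tissue, fewer ciliated cells and less RNA per ciliated cell cannot be told apart.

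Under HDM, 38 of 40 members were lower in tumour than in normal lung at an adjusted p below 0.05 (background 28.9% called lower, 51.9% in either direction), and none was higher (background 23%). The median log2 fold change was -4.86, against -0.08 over all genes, and members ranged from -5.95 (Hydin) to -1.19 (Rfx3). All 3 tumour libraries lay below all 3 normal libraries for 38 members (background 33.5%), and all 40 log2 fold changes were below 0 (background 52.3%). DESeq2 called 39 lower (background 32.7%). The 2 members not called were Mcidas and Ccno. Leaving out each library in turn gave 34 to 39 calls. Without the 4 libraries whose name prefix joins a VEH with an HDM label there were 7, in a fit with 2 libraries per group, and with a block for the prefix 21. Those 4 libraries are normal VEH replicate 2, tumour HDM replicate 2, normal HDM replicate 3 and tumour VEH replicate 3.

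Under VEH, 6 members were lower (background 20.6% called lower, 38.9% in either direction), none was higher (background 18.2%) and 34 were not called. The 6 were the transcription factor genes Rfx2 and Rfx3, Ccdc39, the inner-arm dynein gene Dnah1, and Cfap43 and Cfap44, which form a tether to an inner dynein. The median log2 fold change was -1.91 (all genes -0.11), 39 of 40 were below 0 (background 53.6%), 17 had an unadjusted p below 0.05 (background 49.8%), and 21 did not overlap between the groups (background 28.5%). This count rests on single libraries: it was 18 without tumour VEH replicate 2, 0 without tumour VEH replicate 1 or replicate 3, 1 without normal VEH replicate 1 or replicate 3, and 10 without tumour HDM replicate 3, which enters through the shared spread. DESeq2 called 17 (background 26.4%), a fit of the VEH libraries alone 3, and the fit without the 4 libraries of conflicting prefix 0.

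**Figure D2:**
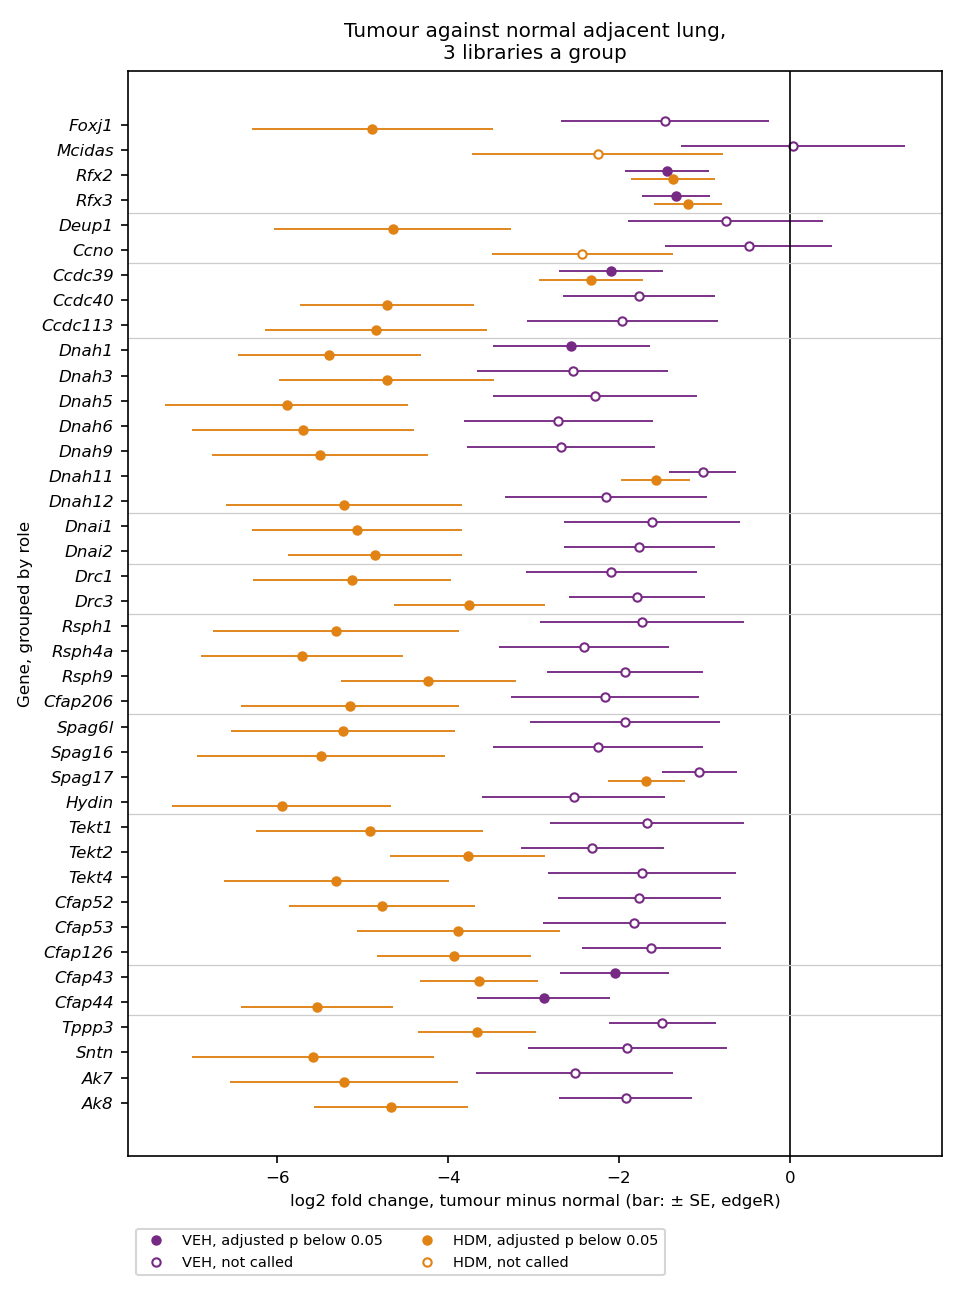
Each point is the log2 fold change of tumour against normal lung (horizontal axis, bar ± SE from edgeR, 3 libraries a group) for 1 of the 40 genes (vertical axis, grouped by role), under VEH in purple and under HDM in orange, filled where the adjusted p was below 0.05. Under HDM 38 points are filled and the median is -4.86, and under VEH 6 are filled and the median is -1.91.

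Among the factors that start the programme, Foxj1, the forkhead factor of motile ciliogenesis, was at 366, 136 and 367 CPM in normal VEH, 90.2, 319 and 245 in normal HDM, 7.14, 235 and 73.9 in tumour VEH, and 12.2, 9.87 and 0.152 in tumour HDM, replicates 1 to 3 in each. Tumour VEH replicate 2 lay within the range of normal VEH and the other 2 below it, while all 3 HDM tumours lay below normal HDM. Its log2 fold change was -4.89 ± 1.41 (SE, adjusted p = 0.015) under HDM and -1.46 ± 1.22 (adjusted p = 0.354) under VEH.

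Rfx3 was steadier: 25.5, 13.3 and 21.9 CPM in normal VEH, 13.4, 27.7 and 27.4 in normal HDM, 4.42, 11 and 8.67 in tumour VEH, and 12.4, 7.86 and 9.7 in tumour HDM. Every tumour was below every normal library of its treatment. The log2 fold change was -1.33 ± 0.40 under VEH (adjusted p = 0.0236) and -1.19 ± 0.40 under HDM (adjusted p = 0.027). Rfx2 fell by 1.44 ± 0.49 on the log2 scale under VEH (adjusted p = 0.0389) and by 1.37 ± 0.49 under HDM (adjusted p = 0.0366). Its HDM groups overlapped, since 1 tumour at 12.8 CPM exceeded a normal library at 11.8 CPM. Both RFX genes are active in many cell types besides ciliated cells.

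Mcidas, which encodes multicilin, was the rarest member, at 2.55, 1.16 and 1.26 CPM in normal VEH, 0, 0.982 and 1.58 in normal HDM, 2.16 and 2.77 in tumour VEH replicates 2 and 3 against 0.17 in replicate 1, and 0.493, 0 and 0.0607 in tumour HDM. It was the one member with a log2 fold change above 0 under VEH, and was called in no comparison (adjusted p = 0.985 under VEH and 0.221 under HDM).

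Among the genes of centriole amplification, Deup1, the scaffold of the deuterosome on which new centrioles form, was at 9.69, 4.09 and 10.6 CPM in normal VEH, 2.62, 7.4 and 8.47 in normal HDM, 0, 7.88 and 6.64 in tumour VEH, and 0.411, 0.273 and 0.0607 in tumour HDM. The HDM tumours did not overlap normal lung (log2 fold change -4.65 ± 1.39, adjusted p = 0.0173). Ccno, an atypical cyclin that multiciliated cells need to amplify centrioles, was at 9.53, 2.77 and 8.84 CPM in normal VEH, 1.8, 4.76 and 5.16 in normal HDM, 0.255, 4.91 and 9.97 in tumour VEH, and 1.4, 0.546 and 0.243 in tumour HDM. Its HDM groups did not overlap, but the test did not call it (-2.43 ± 1.06, adjusted p = 0.0752).

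**Figure D3:**
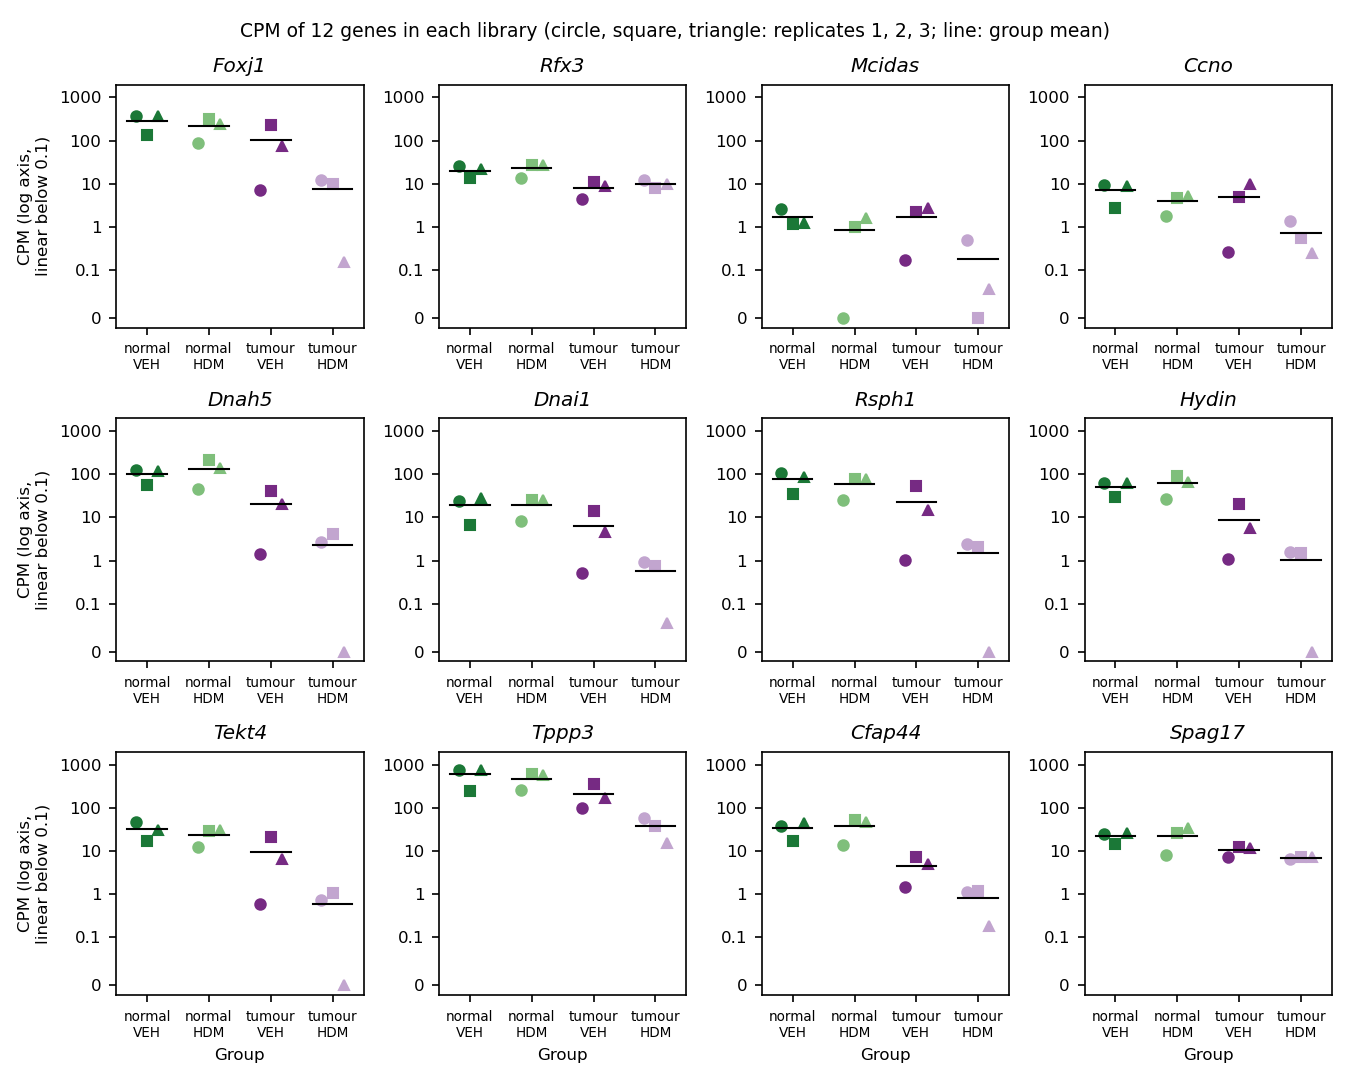
CPM of 12 genes (panels) in each of the 12 libraries, by group on the horizontal axis. The vertical axis is logarithmic and linear below 0.1. Circles, squares and triangles are replicates 1, 2 and 3, and lines are group means. For Foxj1, the VEH tumours span 7.14 to 235 CPM and the HDM tumours 0.152 to 12.2, while Rfx3 and Spag17 stay within 4.42 to 12.6 CPM in all 6 tumours.

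Ccdc39 and Ccdc40 together form the molecular ruler along which inner dynein arms and radial spokes are spaced. Ccdc40 was at 67.5, 36.6 and 72.9 CPM in normal VEH, 23.8, 82.7 and 76.3 in normal HDM, 1.78, 35.7 and 14.4 in tumour VEH, and 3.74, 2.6 and 0.667 in tumour HDM. Its log2 fold change was -4.72 ± 1.02 under HDM (adjusted p = 0.00363) and -1.77 ± 0.89 under VEH (adjusted p = 0.133). Ccdc39 had a smaller log2 fold change under HDM (-2.33 ± 0.61, adjusted p = 0.0093), with HDM tumours at 4.97, 4.2 and 4.49 CPM against 8.77 to 34.9 in normal HDM. The axonemal gene Ccdc113 was at 0 counts in tumour HDM replicate 3 (-4.85 ± 1.30, adjusted p = 0.0104 under HDM).

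The dynein heavy chains are the motors of the cilium. Dnah5, of the outer arm, was at 127, 56.9 and 122 CPM in normal VEH, 46.9, 218 and 139 in normal HDM, 1.44, 40.9 and 20.5 in tumour VEH, and 2.71, 4.17 and 0 in tumour HDM. The groups did not overlap under either treatment. Its log2 fold change was -5.89 ± 1.42 under HDM (adjusted p = 0.00632) and -2.28 ± 1.19 under VEH (adjusted p = 0.147). All 7 heavy chains were called lower under HDM (background 28.9%), from -5.89 to -1.57. None of the 7 overlapped between tumour and normal under either treatment (background, tumour lower, 33.5% under HDM and 28.5% under VEH). Under VEH, Dnah1 passed the test (-2.56 ± 0.92, adjusted p = 0.0495), while Dnah6 (-2.71), Dnah9 (-2.68) and Dnah3 (-2.54) did not, at adjusted p of 0.0762, 0.0753 and 0.0945.

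Dnah11, another outer-arm heavy chain, was the exception among them. It was at 38.1, 27.5 and 39.2 CPM in normal VEH, 16.6, 51.5 and 45.5 in normal HDM, 13.6, 24.2 and 14.1 in tumour VEH, and 10.3, 16.5 and 11.3 in tumour HDM. The 6 tumours stayed within 10.3 to 24.2 CPM, while Dnah5 ran from 0 to 40.9 CPM in them. Dnah11 fell by 1.57 ± 0.40 on the log2 scale under HDM (adjusted p = 0.00766). Of the intermediate chain genes, also of the outer arm, Dnai1 fell by 5.07 ± 1.23 (adjusted p = 0.00637) and Dnai2 by 4.86 ± 1.02 (adjusted p = 0.00316) under HDM on the same scale.

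The nexin-dynein regulatory complex links neighbouring doublets. Drc1 was at 53.7, 19.7 and 59.1 CPM in normal VEH, 17.2, 61.2 and 43.6 in normal HDM, 1.02, 20.9 and 9.04 in tumour VEH, and 2.05, 1.37 and 0.121 in tumour HDM, a log2 fold change of -5.13 ± 1.16 under HDM (adjusted p = 0.00464). Drc3 had a smaller difference (-3.75 ± 0.88, adjusted p = 0.00538).

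Radial spokes reach from the doublets to the central pair. Rsph1 was at 109, 34.3 and 86.7 CPM in normal VEH, 25.7, 76.1 and 77.6 in normal HDM, 1.02, 53.6 and 14.9 in tumour VEH, and 2.46, 2.12 and 0 in tumour HDM. Tumour VEH replicate 2 exceeded normal VEH replicate 2, and the VEH comparison was not called (-1.73 ± 1.20, adjusted p = 0.268), whereas under HDM the log2 fold change was -5.31 ± 1.44 (adjusted p = 0.011). Its partners in the spoke head, Rsph4a and Rsph9, and the spoke-base gene Cfap206 had log2 fold changes of -5.71, -4.23 and -5.15 under HDM, all called.

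Of the central-pair genes, Hydin had the most negative log2 fold change of the 40 under HDM. It was at 64.4, 30 and 61.4 CPM in normal VEH, 26.3, 93.2 and 67.2 in normal HDM, 1.1, 20 and 5.81 in tumour VEH, and 1.56, 1.5 and 0 in tumour HDM. The log2 fold change was -5.95 ± 1.28 under HDM (adjusted p = 0.00356) and -2.53 ± 1.07 under VEH (adjusted p = 0.0839), with no overlap under either treatment. Spag16 (-5.49 ± 1.45, adjusted p = 0.00981) and Spag6l (-5.23 ± 1.31, adjusted p = 0.00757) were also lower under HDM. Spag6l has a near-identical copy, Spag6, which held 571 counts over the 12 libraries against 7226 for Spag6l, and reads could be split between them.

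Spag17, a central-pair gene as well, stayed at 7.35, 12.6 and 11.9 CPM in tumour VEH and 6.65, 7.34 and 7.34 in tumour HDM, against 14.7 to 26.1 in normal VEH and 8.19 to 33.8 in normal HDM. Its log2 fold change under HDM was -1.68 ± 0.45 (adjusted p = 0.00973).

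Tektins run as filaments inside the doublet wall. Tekt4 was at 47.3, 17.3 and 31.6 CPM in normal VEH, 12.7, 28.8 and 30.6 in normal HDM, 0.595, 21.5 and 6.74 in tumour VEH, and 0.739, 1.09 and 0 in tumour HDM (log2 fold change -5.31 ± 1.32 under HDM, adjusted p = 0.00731). Tekt2, printed above with its X-box, had a smaller log2 fold change (-3.77 ± 0.91, adjusted p = 0.00628) and was nearest to a call under VEH among those missed (-2.31 ± 0.84, adjusted p = 0.051). The 6 genes of tektins and inner doublet proteins were all called lower under HDM (background 28.9%), from -5.31 to -3.77. None was called under VEH (background 20.6% called lower).

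Cfap44, also printed above, was at 39.4, 16.8 and 45.7 CPM in normal VEH, 13.7, 53.3 and 48.8 in normal HDM, 1.49, 7.29 and 5.03 in tumour VEH, and 1.15, 1.2 and 0.182 in tumour HDM. All tumours of a treatment lay below all its normal libraries. It had the most negative log2 fold change of the 40 under VEH (-2.88 ± 0.78, adjusted p = 0.0157) and -5.53 ± 0.89 under HDM (adjusted p = 0.000788). Cfap43, its partner in the tether, fell by 2.05 ± 0.64 under VEH (adjusted p = 0.0292) and by 3.64 ± 0.69 under HDM (adjusted p = 0.00184) on the log2 scale.

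Tppp3 was at 779, 250 and 782 CPM in normal VEH, 256, 608 and 574 in normal HDM, 98.8, 371 and 174 in tumour VEH, and 59.8, 38 and 15.8 in tumour HDM. It was the most abundant member in tumours as in normal lung. The log2 fold change was -3.66 ± 0.69 under HDM (adjusted p = 0.00181) and -1.49 ± 0.63 under VEH (adjusted p = 0.0847). Sntn, at 0 in tumour HDM replicate 3, and the ciliary adenylate kinase genes Ak7 and Ak8 had log2 fold changes of -5.58, -5.22 and -4.67 under HDM, all called.

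Whether tumours under HDM differed from tumours under VEH was tested directly. None of the 40 was called by edgeR (background 0.0946%), while 33 had an unadjusted p below 0.05 (background 16.7%) and 20 were called lower by DESeq2 (background 4.96%). The median log2 fold change was -2.94 over the members and -0.03 over all genes, and 39 of 40 were below 0 (background 52.7%). Tppp3 had the smallest adjusted p (-2.50 ± 0.66, adjusted p = 0.165), followed by Ak8 (-2.93 ± 0.84, adjusted p = 0.184) and Dnai2 (-3.22 ± 0.96, adjusted p = 0.192). The 3 members without overlap between the groups were Tppp3, Cfap44 and Spag17 (background 10.7%), and Rfx3 alone was above 0 (0.31 ± 0.39).

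The order of the libraries shows what this comparison rests on. Tumour VEH replicate 2 exceeded replicate 3, and replicate 3 exceeded replicate 1, for 38 of 40 members. All 3 HDM tumours lay below VEH replicates 2 and 3 for 37 members, yet VEH replicate 1 lay below at least 1 HDM tumour for 37 members. Among these tumours, VEH replicate 3 and HDM replicate 2 carry a prefix of conflicting treatment. Without tumour VEH replicate 2 the median log2 fold change was -1.90, with 0 calls.

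The change of the tumour-to-normal difference with treatment (the interaction) was called for none of the 40 (background 0%), with 11 at an unadjusted p below 0.05 (background 9.39%) and a median of -2.87, against -0.02 over all genes. DESeq2 called none of them (background 1.02%). The 38 calls under HDM and 6 under VEH were therefore not shown to differ by treatment.

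The airway secretory list and both alveolar lists had the same highest and lowest tumour libraries as these genes. So did a list of general epithelial genes, at 57.6% in tumour VEH replicate 2 and 0.663% in tumour HDM replicate 3. Not every epithelial list did. The airway basal list was lowest in tumour HDM replicate 2 (11%, against 22.3% in replicate 3). There 5 of its 8 tested genes had 3 counts or fewer. The tuft and neuroendocrine list was lowest in the same library (10.3% against 22.2%), with 3 of 6 tested genes at 3 counts or fewer. It was highest in tumour VEH replicate 3 (66.9%, against 58% in replicate 2). In tumour VEH replicates 1, 2 and 3 the airway secretory list had medians of 1.27%, 37.4% and 14.8% of the normal mean, and in tumour HDM 3.05%, 3.02% and 0.0655%. Its genes were not uniform. The highest single gene was at 17.6%, 1600% and 248% in tumour VEH and at 124%, 24.7% and 0.992% in tumour HDM. Under VEH, 4 of the 11 tested genes had a log2 fold change above 0 and 7 below. The summed level of the list ran from 30400 to 130000 CPM in normal and from 89.3 to 25400 CPM in tumour libraries. The alveolar type 2 list was at 12.3%, 32.1% and 11.5% in tumour VEH and 11.9%, 11.3% and 0.0417% in tumour HDM, with summed levels of 16600 to 46900 CPM in normal and 136 to 9000 CPM in tumour libraries. The alveolar type 1 list was at 6.15%, 25.9% and 7.81%, then 5.12%, 7.59% and 0.204%. Tumour VEH replicate 2 was thus the highest tumour and tumour HDM replicate 3 the lowest for the airway secretory and both alveolar lists, as for the 40 genes. In tumour HDM replicate 3 the defining markers were near 0: Scgb1a1, the main club cell secretory protein, at 2.27 CPM against 21500 to 97600 in normal lung, and Sftpc, surfactant protein C, at 3.12 CPM against 8500 to 25200. Of the lists' tested genes there, 1 of 11 airway secretory genes was at 0 counts, and none of the 10 and 8 alveolar genes. The lung endothelium list did not share that drop: it was at 10.1%, 20.5% and 11.5% in tumour VEH and at 8.6%, 5.66% and 5.49% in tumour HDM, with summed levels of 1730 to 3980 CPM in normal and 161 to 683 CPM in tumour libraries. All 10 of its genes were called lower under either treatment (background 20.6% under VEH and 28.9% under HDM). The median log2 fold changes were -2.88 under VEH and -3.68 under HDM. How far the amount of adjacent lung in a piece enters the differences was not tested.

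**Figure D4:**
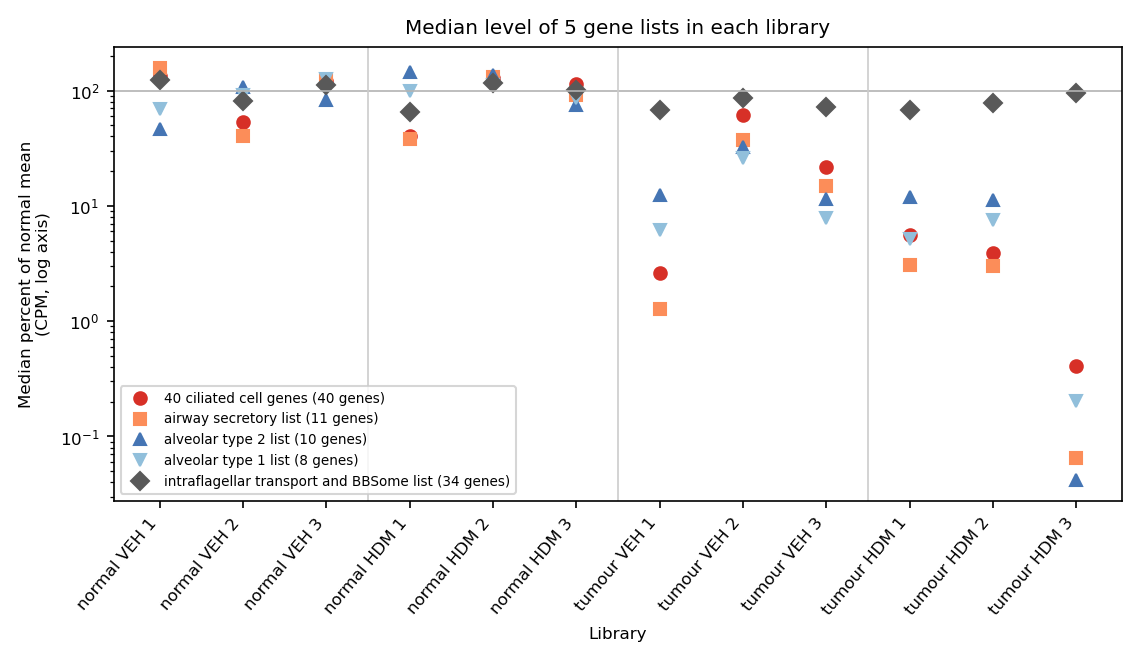
Each symbol is the median, over the tested genes of a list, of CPM as a percent of the normal mean (vertical log axis) in 1 of 12 libraries (horizontal axis). The 40 ciliated cell genes, the airway secretory list and both alveolar lists are at their lowest in tumour HDM replicate 3, while the intraflagellar transport and BBSome list stays between 64.8% and 123% in all 12 libraries.

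Tumour HDM replicate 3 divides the members. In it 14 were at 0 counts and 20 at 3 counts or fewer, and the median member was at 0.407% of the normal mean. Rfx3 was at 45.1%, Spag17 at 32.7%, Dnah11 at 31.2% and Rfx2 at 26.9%. Of the retained genes, 3 overlap a tested protein-coding gene on the opposite strand: Spag17 overlaps Wdr3, Dnah11 overlaps Cdca7l, and Ccdc39 overlaps Ttc14. In that library Wdr3 held 2050 counts, Cdca7l 1381 and Ttc14 1020, against 242, 374 and 148 for Spag17, Dnah11 and Ccdc39. Overlap here means that the spans of the genes meet, introns included, so a pair need not share counted bases. Other members beside an abundant gene of this kind held fewer counts. Dnah1 held 5 counts beside 2160 of Bap1, Rsph9 10 beside 777 of Mrps18a, Cfap52 5 beside 700 of Stx8, Dnai1 2 beside 530 of Fam219a, and Dnah9 2 beside 378 of Zkscan6. Drc3 held 92 beside 1442 of Tom1l2, and Cfap43 57 beside 5756 of Sfr1. Rfx3, the most retained, had no overlapping gene listed, and the tested partner of Rfx2, a noncoding gene, held 23 counts. Whether counting used the strand is not stated, so the share of such reads was not tested, and the levels of Spag17, Dnah11 and Ccdc39 in tumours are uncertain.

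Tumour VEH replicate 3 divides them in another way. There the median of the 34 structural members was 20.9% of the normal mean, but Mcidas was at 220%, Ccno at 182% and Deup1 at 93%. For Mcidas and Ccno this library was the highest of the 12, though normal VEH replicate 1 was near, at 203% and 174%. Counts were small for Mcidas (60) and larger for Ccno (216) and Deup1 (144). Other early regulators were mixed there. Foxn4, a forkhead factor of early multiciliated cells, was at 254% (52 counts) and Cdc20b, whose locus is active in deuterosome-stage cells, at 679% (34 counts). Normal VEH replicate 3 also held this pair high, at 205% and 255%. Cdc20b held only 0 to 14 counts in a normal library, so its percents rest on few reads. It was also at 242% in tumour VEH replicate 2 (15 counts). Gmnc was at 63.1%, Myb at 32.1%, Foxj1 at 29.1% and Trp73 at 16.9%, so the high values were not shared by the whole group. In tumour VEH replicate 2, Mcidas, Ccno and Deup1 were at 172%, 89.6% and 110%, against 57.7% for the structural median. In tumour HDM replicates 1, 2 and 3 the structural median was 4.85%, 3.88% and 0.197%. Ccno lay above it in all 3, at 25.5%, 9.98% and 4.43%, on 34, 16 and 8 counts. Mcidas was at 39.2%, 0% and 4.83%, on 12, 0 and 2 counts, and Deup1 at 5.75%, 3.82% and 0.849%, on 10, 8 and 2 counts. All 3 early genes thus lay above the structural median in replicates 1 and 3, where counts were few. No difference between groups was called for Mcidas or Ccno, so this is a description of single libraries.

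**Figure D5:**
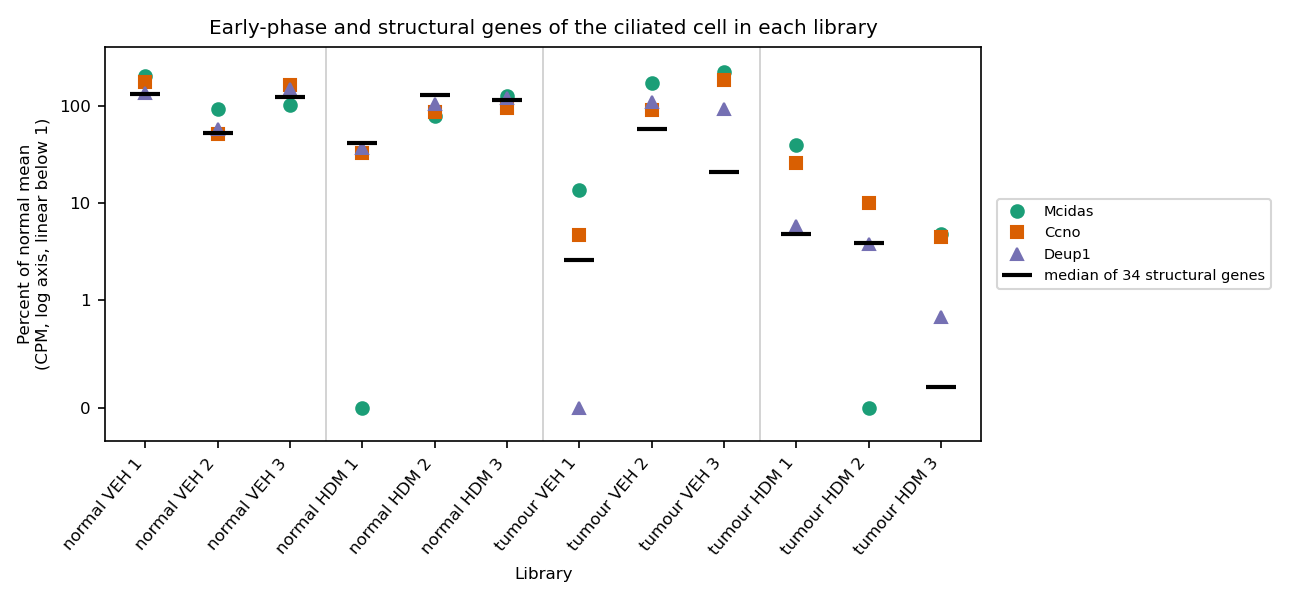
CPM of Mcidas, Ccno and Deup1 (symbols) and the median of the 34 structural genes (bars) as a percent of the normal mean (vertical axis, logarithmic, linear below 1) in each of 12 libraries. In tumour VEH replicate 3 the early genes are at 93% to 220% and the structural median at 20.9%.

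A further list held 11 genes: other regulators of multiciliation and further members of the E2F and RFX families. Of these, 10 were tested, and under HDM 3 were lower and 2 higher in tumour than in normal lung. Those counts are near the shares over all genes, 28.9% lower and 23% higher, so they do not set the list apart. Lower were Gmnc (-5.59 ± 1.55, adjusted p = 0.0123), which acts upstream of Mcidas, Myb (-4.84 ± 1.08, adjusted p = 0.00427), and Trp73 (-5.88 ± 1.28, adjusted p = 0.00384), an activator of Foxj1. Higher were E2f4, a partner of multicilin that also serves the cell cycle (1.51 ± 0.20, adjusted p = 0.000256), and Rfx7 (1.40 ± 0.17, adjusted p = 0.000167). Both were also higher under VEH, with log2 fold changes of 1.11 and 0.98 (background 18.2% called higher). No gene of this list was called lower there (background 20.6%). Not called under HDM were E2f5 (0.57), Foxn4 (-3.42), Cdc20b (-0.39), Rfx1 (0.38) and Rfx5 (-0.09), and Rfx4 was not tested.

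Other genes of the motile axoneme showed the same direction as the members under HDM. Called lower were 17 of 19 genes of dynein arms and docking (median -4.19) and 25 of 28 of spokes, nexin links and central pair (median -4.68). So were 23 of 25 in a mixed list of inner doublet proteins and other cilium-associated genes (median -4.26). Also lower were 20 of 22 other ciliated cell markers (median -4.61), and none in these lists was higher. Over all genes, 28.9% were called lower under HDM. Under VEH the counts were 5, 5, 4 and 1, near or below the 20.6% of all genes called lower there. Among the more abundant genes of these lists, Dnali1 fell by 4.48 ± 0.91 on the log2 scale under HDM (adjusted p = 0.00266), while Gas8 was not called (-0.02 ± 0.27, adjusted p = 0.964). Of 13 dynein assembly factors, which fold the arms in the cytoplasm, 7 were lower under HDM (background 28.9%). Under VEH 1 was lower (background 20.6%) and 1 higher (background 18.2%), both below the shares over all genes.

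Genes that primary cilia or dividing cells also use were tested as well. Of 34 intraflagellar transport and BBSome genes, whose products carry cargo in motile and primary cilia alike, 10 were lower and 5 higher under HDM (median -0.10), and 6 lower and 2 higher under VEH (median -0.48). The shares called lower were near those over all genes, 28.9% under HDM and 20.6% under VEH, and the shares called higher were below those over all genes, 23% and 18.2%. Ift172 was lower under HDM (-1.26 ± 0.30, adjusted p = 0.00516), and the kinesin subunit gene Kifap3 was higher (0.87 ± 0.18, adjusted p = 0.00315). Of 9 centriole duplication genes, 5 were higher and 1 lower under either treatment, with medians of 1.58 under HDM and 1.35 under VEH. Cep192 was higher (2.25 ± 0.26 under HDM, adjusted p = 0.000144), and Cep63 lower (-0.57 ± 0.19, adjusted p = 0.0296).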

How the data were processed

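The deposited table holds raw counts per gene for 12 libraries and a gene length. Per the submitters' processing notes, the tools were Trim Galore, STAR and featureCounts of Subread, with the mm39 build, and their versions and the strand setting are not given in the sources used here. Per the labels' protocols, libraries were stranded (dUTP) and paired-end, from tissue with an RNA integrity number above 6, and they name both poly(A) selection and ribosomal depletion without saying which was used. Among deposited counts of 1 to 20, 68.2% to 72% were even, and values of 2 (26797) outnumbered values of 1 (11683). If both reads of a pair were counted, which is not stated, a count of 2 stands for 1 fragment.

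Symbols and coordinates came from GENCODE M39 on GRCm39, which holds 78168 of the 78298 identifiers. The other 130 carried 0.143% of counts. The tests were run on these counts with edgeR 4.0.16 under R 4.3.3: filterByExpr (minimum count 10, 22190 genes left), TMM scaling, a coefficient per group over all 12 libraries, robust quasi-likelihood F-tests (two-sided) and Benjamini-Hochberg adjustment over all tested genes in each of 5 comparisons. Called means an adjusted p below 0.05. SE was taken as the absolute log2 fold change over the root of F. CPM are TMM-scaled, and TPM use the deposited lengths without TMM. Values in percent are CPM over the mean of the 6 normal libraries. DESeq2 1.42.0 was an alternative. The code was tested on simulated data. Replicate libraries differed by more than counting noise in every group.

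All libraries carry 1 batch value in the labels. Each of 6 library-name prefixes joins 1 normal and 1 tumour library, and 2 prefixes join a VEH with an HDM label (4 libraries). One joins normal VEH replicate 2 with tumour HDM replicate 2, the other normal HDM replicate 3 with tumour VEH replicate 3. Treatment labels were kept as given. No pairing entered the test, because these 2 prefixes conflict in treatment and the replicate numbers do not follow the prefixes. The members and lists were chosen with earlier results of these data known. All members and the regulators may be named, and of each other list the 3 tested genes with the highest mean CPM, plus genes on which a statement of library quality turns (Epcam). Promoters with an X-box were printed. Genes overlapping a member were chosen after their values were seen.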

Additional observations from a re-analysis of the deposited data

How the results depend on the processing

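Scaling by DESeq2 size factors or library size alone left every count of calls among the 40 genes within 1.5 times of that reported, although library-size scaling moved the median log2 fold change of all genes from -0.11 to 0.03 under VEH and from -0.08 to 0.1 under HDM. The count under VEH, 6 as reported, was 1 without a filter on low counts, 17 with the DESeq2 Wald test, 3 with only the compared groups, 0 without the 4 libraries of conflicting prefix, and 0 to 18 when each library was left out in turn. Under HDM, 38 became 13 with at least 10 counts in every library, which left 13 members to test, 21 with the prefix block, 7 without the 4 libraries of conflicting prefix, and 34 to 39 with each library left out. HDM against VEH in tumours gave 20 calls with the DESeq2 Wald test and 0 otherwise. HDM against VEH in normal lung and the interaction gave 0 calls under every alternative run, including 0 to 0 with each library left out. Of single members, Ccno under VEH turned from -0.48 to 0.2 without tumour VEH replicate 1, with -1.34 to 0.2 over the libraries left out. The cause of these changes was not tested where the setting itself does not show it.

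Whether the titles' replicate numbers pair the samples is not settled. Over tested genes, deviations from group means of same-numbered libraries of different groups correlated at -0.36 to 0.3, with 8 of 18 pairs over 0.1. Pairs with the same prefix correlated at -0.22 to 0.18, with 3 of 6 over 0.1. Pairs sharing neither ran from -0.53 to 0.54, a range that holds both others, with 6 of 33 over 0.1. With the replicate block, 7 members were called under VEH (4 of them among the 6) and 36 under HDM. Depth limits the low end: 20 members had 3 counts or fewer in tumour HDM replicate 3.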
